A study of Mus with 8 samples.

Results

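A set of 10 genes that mark dendritic cells or their maturation was followed across all libraries of a study of mouse bone-marrow monocytes in artificial matrix. The genes were picked by name and Ensembl gene ID, and all 10 had a row among the 17640 IDs of the count table. They are *Ccl17*, *Ccl22*, *Ccr7*, *Cd80*, *Cd86*, *Cd40*, *Cd83*, *Cd209a*, *Itgax* and *Zbtb46*. Monocytes can become dendritic cells, the cells that take up antigen, carry it to lymph nodes and present it to T cells, and culture with GM-CSF and IL4 is a common way to drive this step. During maturation a dendritic cell raises the chemokine receptor that guides it to lymph nodes, the costimulatory proteins that T cells need, and chemokines that attract T cells.

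Monocytes were isolated from bone marrow by negative selection. The mutant cells carried Jak2 V617F with Vav-iCre, and the control cells carried Vav-iCre alone, both on the C57BL/6 strain. Jak2 V617F is an activating mutation found in myeloproliferative neoplasms, and the Vav promoter drives the Cre recombinase in blood-forming cells, so every group carried the recombinase. Cells of each genotype were kept to day 3 in a stiff gel that was either elastic (NbTz in the titles) or viscous (VLVG), always with GM-CSF at 100 ng/mL, IL4 at 200 ng/mL and PGE2 (prostaglandin E2) at 100 ng/mL. This gave 4 groups of 2 libraries: Jak2 V617F elastic, Jak2 V617F viscous, control elastic and control viscous. All 4 groups received the cytokines, and elasticity cannot be told apart from whatever else differs between the 2 materials. The ages of the mice, and whether cells of several mice were pooled, are not given in the sources used here. An elastic and a viscous library of a genotype share the number at the end of their titles. These numbers are called J1 (titles with Jak2_NbTz_6061 and Jak2_VLVG_6061) and J2 (Jak2_NbTz_6065 and Jak2_VLVG_6065) in Jak2 V617F cells, and W1 (WT_NbTz_6060 and WT_VLVG_6060) and W2 (WT_NbTz_6064 and WT_VLVG_6064) in control cells. The labels leave out what a number marks, so the p-values rest on a spread between libraries that may be technical.

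Library totals ran between 30632355 and 38408851 counts. Both libraries of number W1 stood apart from the other 6: on the first principal component of all tested genes, which held 41.5% of the variance, they scored 69.4 and 78.2, against −37.1 to −10.9. Results that rest on them are given with and without them. Gene names could be attached to no other ID, so markers of monocytes and of other cell types, and the further dendritic cell genes listed for this work, were not read, and the label "monocytes" was not checked against its own markers.

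*Ccl17* (ENSMUSG00000031780) and *Ccl22* (ENSMUSG00000031779) lie close together on mouse chromosome 8 in build GRCm38, at 94809380 to 94812038 and at 94745684 to 94751388, with 57991 bases and 3 annotated genes between them. *Cd80* (ENSMUSG00000075122) and *Cd86* (ENSMUSG00000022901) share chromosome 16, at 38457430 to 38495958 and at 36568956 to 36666158. *Cd40* (ENSMUSG00000017652, at 165055614 to 165071654) and *Zbtb46* (ENSMUSG00000027583, at 181371009 to 181493262) are both on chromosome 2. *Ccr7* (ENSMUSG00000037944) is on chromosome 11 at 99144199 to 99155077 and *Cd83* (ENSMUSG00000015396) on chromosome 13 at 43785112 to 43803133. *Itgax* (ENSMUSG00000030789) is on chromosome 7 at 128129526 to 128150657, and *Cd209a* (ENSMUSG00000031494) on chromosome 8 at 3743395 to 3748984.

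All members but 1 were read at depth in every library; *Cd209a* was almost absent. Apart from *Cd209a*, the lowest count of a member in any library was 431, for *Zbtb46*, and the highest was 122082, for *Ccl22*. *Cd209a*, which encodes a mouse relative of the lectin DC-SIGN and is used as a marker of monocyte-derived dendritic cells, had 0 and 0 counts in Jak2 V617F elastic, 15 and 8 in Jak2 V617F viscous, 2 and 3 in control elastic, and 10 and 5 in control viscous libraries. Over all 4 elastic libraries this was 5 counts of 130400970 (0.0383 per 1000000, exact Poisson 95% interval 0.0125 to 0.0895), and over all 4 viscous libraries 38 counts of 142558481 (0.267 per 1000000, interval 0.189 to 0.366); these intervals cover counting error only. By the one-sided limit of 3 counts, a count of 0 allows up to 0.0946 per 1000000 in the shallower Jak2 V617F elastic library (the upper bound of the two-sided Poisson interval is 0.116), and none of the elastic libraries exceeded 3 counts. *Cd209a* failed the low-count filter in the fits of all 8 libraries but not in that of summed counts. The values below are CPM (counts per 1000000 of the scaled library total), with J1 before J2 and W1 before W2 in each pair. They are not compared between genes, since transcript lengths were not used.

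**Figure D1:**
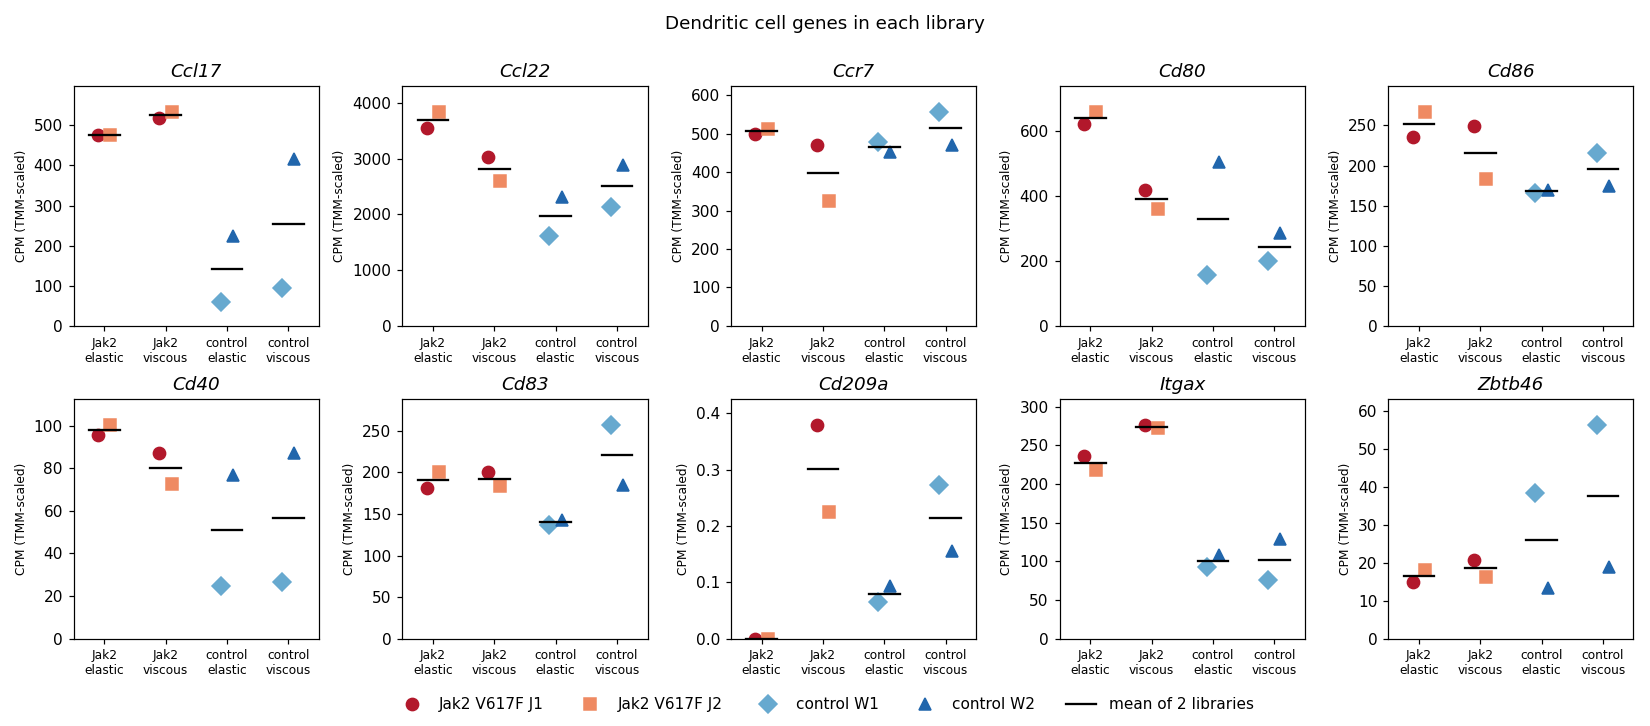
Expression of the 10 genes in each library, as CPM after TMM scaling on axes that start at 0 and differ between panels. Each point is 1 library, its shape and colour give the title number, and the bar is the mean of the 2 libraries of a group. The control W1 libraries are the lowest for Ccl17, Ccl22, Cd40, Cd80 and Itgax and the highest for Zbtb46.

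The chemokines *Ccl17* and *Ccl22* attract T cells that carry the receptor CCR4, and both are typical products of dendritic cells grown with IL4. *Ccl17* stood at 476 and 477 CPM in Jak2 V617F elastic and at 519 and 533 CPM in Jak2 V617F viscous libraries, against 60.1 (W1) and 223 (W2) CPM in control elastic and 94.8 (W1) and 415 (W2) CPM in control viscous libraries. The 4 Jak2 V617F libraries all lay above the 4 control libraries and close to each other, while the control numbers differed 3.72-fold in elastic and 4.38-fold in viscous gel, with W1 the lower. *Ccl22* stood at 3555 and 3836 CPM in Jak2 V617F elastic and 3027 and 2596 CPM in Jak2 V617F viscous libraries, against 1616 (W1) and 2321 (W2) CPM in control elastic and 2131 (W1) and 2890 (W2) CPM in control viscous libraries. For *Ccl22* the genotypes overlapped in viscous gel and did not in elastic gel. *Ccr7*, the receptor that guides maturing dendritic cells to lymph nodes, stood at 499.97 (J1) and 513 (J2) CPM in Jak2 V617F elastic and 469.9 (J1) and 326 (J2) CPM in Jak2 V617F viscous libraries, against 479 (W1) and 453 (W2) CPM in control elastic and 556 (W1) and 471 (W2) CPM in control viscous libraries. Its lowest value was the Jak2 V617F viscous library of number J2, and the other 7 libraries lay within 453 to 556 CPM.

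*Cd80* and *Cd86* encode the costimulatory ligands B7-1 and B7-2, which T cells sense through CD28 and CTLA4. *Cd80* stood at 623 (J1) and 659 (J2) CPM in Jak2 V617F elastic and 419 (J1) and 361 (J2) CPM in Jak2 V617F viscous libraries, against 156 (W1) and 504 (W2) CPM in control elastic and 199 (W1) and 286 (W2) CPM in control viscous libraries. The 3 highest values were the elastic libraries of every number but W1, whose elastic library was the lowest of all. *Cd86* stood at 236 and 267 CPM in Jak2 V617F elastic and 249 and 183 CPM in Jak2 V617F viscous libraries, against 166 and 170.1 CPM in control elastic and 216 and 175 CPM in control viscous libraries. Number W1 did not stand out for *Cd86*.

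*Cd40* encodes the receptor through which helper T cells license dendritic cells, and *Cd83* a surface protein of mature dendritic cells. *Cd40* stood at 95.5 and 100.3 CPM in Jak2 V617F elastic and 87.2 and 72.7 CPM in Jak2 V617F viscous libraries, against 24.97 (W1) and 76.6 (W2) CPM in control elastic and 26.4 (W1) and 87.0 (W2) CPM in control viscous libraries. Control W2 thus lay among the Jak2 V617F libraries in *Cd40*, and W1 lay far below in both gels. *Cd83* stood at 181 and 200.2 CPM in Jak2 V617F elastic and 200.5 and 183 CPM in Jak2 V617F viscous libraries, against 137 and 143 CPM in control elastic and 257 (W1) and 185 (W2) CPM in control viscous libraries. The 2 control elastic libraries were the lowest of the 8.

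*Itgax* encodes CD11c, the integrin chain used to identify dendritic cells in mice, and *Zbtb46* a transcription factor found in conventional dendritic cells and their committed precursors. *Itgax* stood at 237 and 218 CPM in Jak2 V617F elastic and 277 and 272 CPM in Jak2 V617F viscous libraries, against 93.2 (W1) and 108 (W2) CPM in control elastic and 75.6 (W1) and 128.5 (W2) CPM in control viscous libraries. The lowest Jak2 V617F value was thus well above the highest control value, and the W1 libraries were the lowest of all. *Zbtb46* stood at 15.1 and 18.2 CPM in Jak2 V617F elastic and 20.8 and 16.4 CPM in Jak2 V617F viscous libraries, against 38.4 (W1) and 13.4 (W2) CPM in control elastic and 56.4 (W1) and 18.9 (W2) CPM in control viscous libraries. Both W1 libraries were far above the other 6, which lay within 13.4 to 20.8 CPM.

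Jak2 V617F cells were compared with control cells to ask how the mutation bears on these genes. *Itgax* was higher in each Jak2 V617F library than in each control library, and in elastic gel 8 of the 9 members that passed the filter were higher in both Jak2 V617F libraries than in both control libraries, as were 17.2% of IDs. The exception in elastic gel was *Zbtb46*. On counts summed over the gels, the differences in *Ccl17*, *Ccl22*, *Cd40*, *Cd80* and *Itgax* were smaller without control number W1. That in *Zbtb46* turned sign. In bulk RNA, a different share of cells that express a gene and a different amount of RNA per cell cannot be told apart.

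On counts summed over both gels for each number, *Itgax* was 2.52-fold higher in Jak2 V617F cells (log2 fold change 1.33, SE 0.21, 95% interval 0.76 to 1.90). By edgeR's quasi-likelihood test its adjusted p was 0.792, and DESeq2 called it (adjusted p = 5.45e-05). Over 11 alternatives its adjusted p ranged from that value to 0.99995 and was under the threshold in 2. A fold change at least as large as that of *Itgax*, in either direction, was seen in 4.61% of all tested IDs. edgeR called 0 of the 10 members and 0% of the 15239 IDs tested at an adjusted p under 0.05; DESeq2 called 1 member and 0.696% of IDs. At an unadjusted edgeR p under 0.05 there was also 1 member, *Itgax* again, and 5.22% of IDs. Over single libraries, *Itgax* and *Ccl17* were higher in all 4 Jak2 V617F than in all 4 control libraries, as were 3.5% of IDs; no member was lower in all 4, against 3.39% of IDs.

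Of the other members, *Ccl17* had a log2 fold change of 1.34 (SE 0.69), *Cd80* of 0.83 (SE 0.41), *Cd40* of 0.72 (SE 0.57), *Ccl22* of 0.53 (SE 0.26) and *Cd86* of 0.36 (SE 0.13) in the summed comparison. *Zbtb46* had −0.85 (SE 0.53). *Ccr7* (−0.12, SE 0.17) and *Cd83* (0.07, SE 0.15) lay near 0. *Cd209a* had 0.11 (SE 0.57), from at most 15 counts a library. Its 95% interval, −1.44 to 1.65, leaves room for a change of over 1 log2 unit either way. The 95% interval of each of these 9 genes included 0. The median over the 10 members was 0.44, with 8 positive, beside a median of −0.00 and 49.2% positive over all IDs.

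These sizes moved with control number W1. Without it, the log2 fold change of *Ccl17* was 0.66, of *Cd80* 0.37, of *Cd40* 0.11, of *Ccl22* 0.31 and of *Zbtb46* 0.13, while that of *Itgax* was 1.10 and that of *Cd86* 0.43. With W1 as the only control, after leaving out W2, *Ccl17* reached 2.69, *Cd40* 1.80, *Itgax* 1.62, *Cd80* 1.53, *Ccl22* 0.79 and *Zbtb46* −1.42. In that fit edgeR called these 6 members of 10 (adjusted p = 0.00148 to 0.0305) and 16.6% of IDs, with the spread taken from the Jak2 V617F sums alone.

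**Figure D2:**
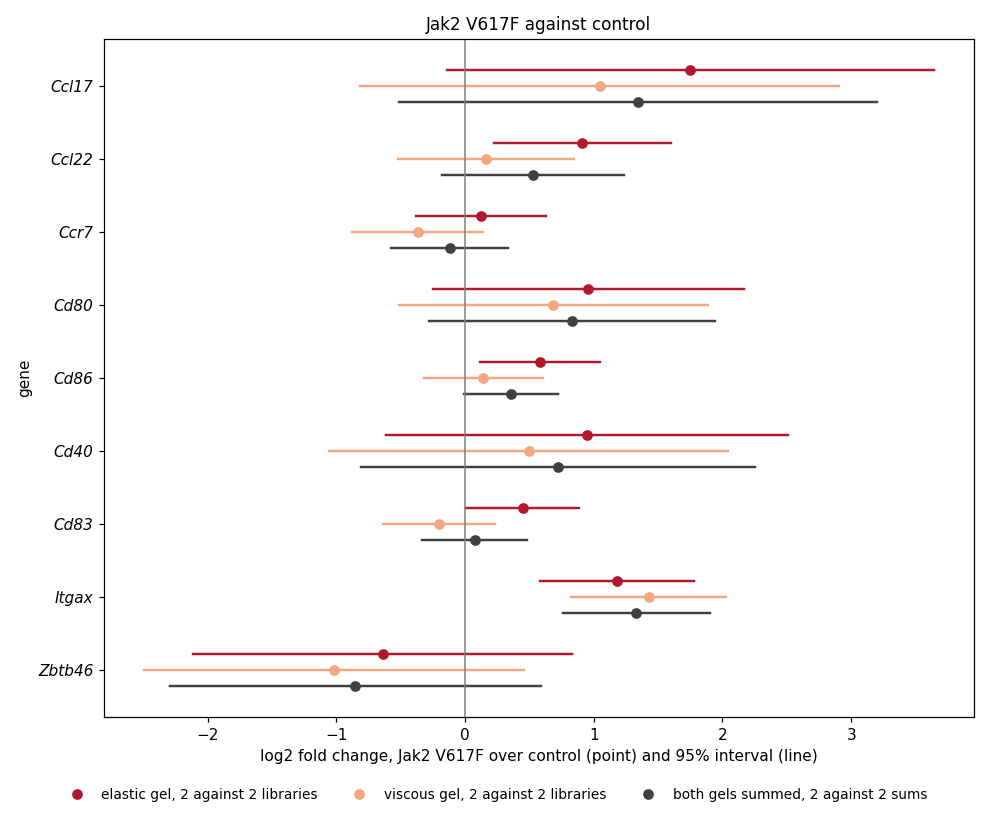
Log2 fold change of Jak2 V617F over control cells (point) with its 95% interval (line) for the 9 members that passed the filter, in elastic gel, in viscous gel and on counts summed over both gels (2 against 2 in each). The Itgax intervals lie above 0 in all 3, and the intervals of Ccl17, Cd40, Cd80 and Zbtb46 include 0 in all 3.

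In elastic gel, *Itgax* was 2.26-fold higher in Jak2 V617F than in control cells (log2 fold change 1.18, SE 0.25), *Ccl22* 1.88-fold (0.91, SE 0.29), *Cd86* 1.49-fold (0.58, SE 0.19) and *Cd83* 1.36-fold (0.45, SE 0.18). These 4 members had an unadjusted edgeR p under 0.05, as did 4.42% of IDs, with the same adjusted p of 0.937 for each. Among the 14785 IDs edgeR called 0%; DESeq2 called *Itgax* (adjusted p = 0.0101) and 0.298% of IDs. Over 20 alternatives the adjusted p of *Itgax* ranged from 3.28e-07 to 1. None of the 9 members that passed the filter was lower in both Jak2 V617F libraries, against 18.9% of IDs. *Cd209a*, which failed the filter, was lower in both, with 0 and 0 counts against 2 and 3 in control libraries. The 9 log2 fold changes ranged from −0.64 (*Zbtb46*) to 1.75 (*Ccl17*), with a median of 0.91 and 8 positive, against −0.01 and 48.4% over all IDs. Without W1 they ranged from 0.16 (*Ccr7*) to 1.09 (*Ccl17*), and their median was 0.41, against 0.00 over all IDs.

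In viscous gel, *Itgax* was 2.69-fold higher in Jak2 V617F cells (log2 fold change 1.43, SE 0.25), with an edgeR adjusted p of 0.649 and a DESeq2 adjusted p of 0.000198. Its adjusted p over 20 alternatives ranged from 7.93e-08 to 1. The other 8 members ranged from −1.02 (*Zbtb46*) to 1.04 (*Ccl17*), and the median over the 9 was 0.16, with 6 positive, against −0.01 and 48.7% over all IDs. Without W1, *Zbtb46* was at −0.03 and *Ccl17* at 0.34, and the median over the 9 was 0.06. DESeq2 called 1 member, *Itgax*, and 0.413% of IDs; 1 member and 7.31% of IDs had an unadjusted edgeR p under 0.05. *Ccl17*, *Cd80* and *Itgax* were higher in both Jak2 V617F libraries (18.6% of IDs), and *Ccr7* was lower in both (19% of IDs). The *Ccr7* libraries nearest to each other had 469.9 CPM (J1) and 471 CPM (W2), and with DESeq2 size factors they had 469 and 467 CPM, so the groups then overlapped.

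Leaving out number W1 in these 2 comparisons left *Itgax* at 1.08 in elastic and 1.10 in viscous gel by edgeR (adjusted p = 0.587 and 0.286). In elastic gel *Ccl22* was then at 0.67, *Cd86* at 0.56 and *Cd83* at 0.41. DESeq2 without W1, an alternative chosen after the counts were seen, called *Itgax*, *Ccl17* and *Ccl22* in elastic gel (0.386% of IDs) and *Itgax* in viscous gel (1.13% of IDs). Each of these fits has 1 control library a gel, so its spread comes from the Jak2 V617F libraries. Without W2, edgeR called 6 members in elastic gel (7.79% of IDs) and 5 in viscous gel (4.98% of IDs), with the same limit.

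Elastic gel was compared with viscous gel to ask how the matrix bears on the same genes. With all 8 libraries, neither edgeR nor DESeq2 called a member in either genotype or over both. In control cells *Cd83* was lower in both elastic libraries than in both viscous libraries, as were 13.8% of IDs. *Cd80* was higher in elastic gel in 3 of the 4 numbers, as were 22.6% of IDs. Of the members that passed the filter, *Ccl17* was lower in elastic gel in each of the 4 numbers, as were 10.8% of IDs. *Cd83*, *Cd86*, *Zbtb46* and *Itgax* were lower in 3 of 4, as were 23.5% of IDs.

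Averaged over genotypes, *Cd83* had a log2 fold change of −0.33 (SE 0.13, 95% interval −0.64 to −0.03), or 1.26-fold lower in elastic gel, with an edgeR adjusted p of 0.766. It was the 1 member with an unadjusted p under 0.05, beside 6.28% of IDs, and without W1 its value was −0.19. *Cd80* had 0.58 (SE 0.35), *Ccl17* −0.50 (SE 0.54), *Zbtb46* −0.35 (SE 0.43) and *Itgax* −0.15 (SE 0.17), all with intervals that included 0. *Ccr7* (0.10, SE 0.15), *Cd40* (0.07, SE 0.46), *Ccl22* (0.02, SE 0.20) and *Cd86* (0.00, SE 0.14) were nearer to 0. All tested members but *Cd83* and *Cd80* were within their SE of 0. The interval of *Cd86*, −0.33 to 0.33, leaves room for a change of about that size either way, and that of *Cd40*, −1.03 to 1.16, for one of over 1 log2 unit. edgeR called 0% of IDs; DESeq2 called 0 members and 0.906% of IDs. None of the 9 members that passed the filter separated the 4 elastic from the 4 viscous libraries. Of IDs, 2.07% were higher and 1.66% lower in all 4 elastic libraries. *Cd209a*, which failed the filter, was lower in all 4 elastic libraries, at very low counts. Its highest elastic value was 0.0934 CPM (3 counts) and its lowest viscous value 0.156 CPM (5 counts). The median over the 9 members was 0.00 and 5 were positive, beside −0.00 and 49% over all IDs.

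**Figure D3:**
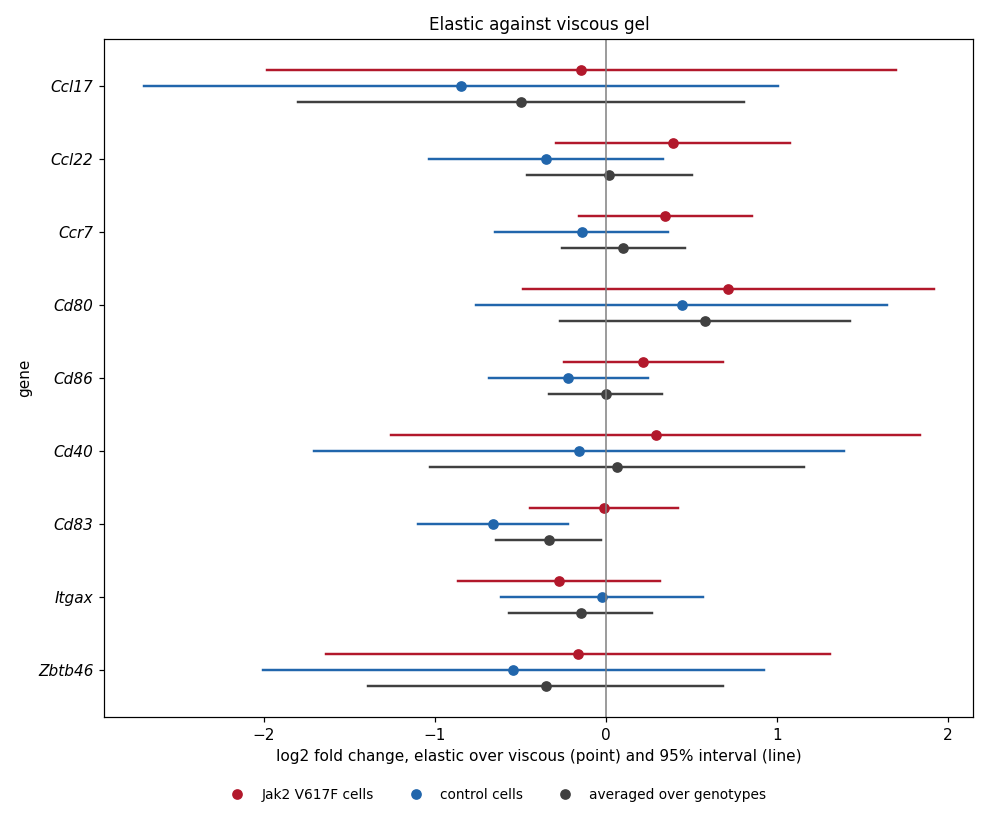
Log2 fold change of elastic over viscous gel (point) with its 95% interval (line) for the 9 members that passed the filter, in Jak2 V617F cells, in control cells and averaged over the genotypes. Only the Cd83 intervals in control cells and in the average lie wholly below 0, and 5 points of Jak2 V617F cells and 1 of control cells lie above 0.

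The CPM ratio of elastic to viscous gel was also taken within each number. For *Cd80* it was 1.48 (J1), 1.83 (J2), 1.76 (W2) and 0.78 (W1). For *Ccl17* it was 0.92 (J1), 0.89 (J2), 0.54 (W2) and 0.63 (W1), so the direction was shared and the size was larger in both control numbers. *Itgax* had 0.86 (J1), 0.80 (J2), 0.84 (W2) and 1.23 (W1), again with W1 on the other side. Without the W1 libraries the averaged log2 fold change of *Cd80* was 0.77 and that of *Ccl17* was −0.52. That of *Cd80* was 0.18 without number W2 and 0.04 without the control elastic library of W2 alone. By edgeR with W1 left out, the adjusted p-values of *Cd80* and *Ccl17* were 0.143 and 0.195, and DESeq2 without W1 called these 2 members and 2.29% of IDs (adjusted p = 3.81e-07 for *Cd80* and 0.000209 for *Ccl17*). Over 20 alternatives the adjusted p ranged up to 0.99999 for both genes and was under the threshold in this 1 only. That fit also called *Cd80* in Jak2 V617F cells (1.26% of IDs) and *Cd80* and *Ccl17* in control cells (0.692% of IDs), with the spread again from the Jak2 V617F libraries.

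In Jak2 V617F cells alone, the 9 log2 fold changes ranged from −0.27 to 0.72 with a median of 0.22 and 5 positive, against −0.01 and 47.9% over all IDs. Of these 9, *Cd80*, *Ccl22*, *Ccr7* and *Cd40* were higher in both elastic libraries (19.1% of IDs), and *Ccl17* and *Itgax* lower in both (20.6% of IDs). None of the 9 had an unadjusted edgeR p under 0.05 (3.08% of IDs), and DESeq2 called none (0.237% of IDs). In control cells the range was −0.85 to 0.44 with a median of −0.22, and 1 member of 9, *Cd80*, was positive, against 0.00 and 50.2% over all IDs. *Cd83* was 1.58-fold lower in elastic gel (log2 fold change −0.66, SE 0.18), with an edgeR adjusted p of 0.985 and a range of 0.262 to 1 over 21 alternatives. It was the 1 control member with an unadjusted p under 0.05 (4.85% of IDs), and DESeq2 called none there (0.237% of IDs). Of the 9, *Cd83* and *Cd86* were lower in both control elastic libraries (13.8% of IDs), and no member was higher in both (13.1% of IDs). *Cd209a*, which failed the filter, was lower in both elastic libraries in each genotype, from at most 15 counts a library. Without W1 the *Cd83* difference in control cells was −0.37, 1 library against 1.

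Whether the mutation alters the response to the gel was tested as the difference of the 2 matrix effects. For *Cd83* the elastic over viscous log2 fold change was larger by 0.65 in Jak2 V617F than in control cells (SE 0.26, 95% interval 0.03 to 1.27), with an edgeR adjusted p of 0.9999. It was the 1 member with an unadjusted p under 0.05, beside 1.72% of IDs, and without W1 the difference was 0.36. Of the 9 differences 8 were positive, all but that of *Itgax*, with a range of −0.25 to 0.75 and a median of 0.45, beside 45.8% positive and a median of −0.03 over all IDs. Without W1, 7 were positive and the median was 0.36. edgeR called 0%, DESeq2 called 0 members and 0.0135% of IDs, and DESeq2 without W1 called 0 members and 0.0532% of IDs. These differences share their libraries with the genotype and matrix comparisons above, so they are another view of the same values.

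Over all IDs, libraries of 1 group differed more in control than in Jak2 V617F cells, and 5 of the 9 members differed over 1.5-fold in control cells only. Between J1 and J2 the fold between the larger and the smaller CPM was 1.00 to 1.44 over the 9 members and both gels, and none of these 18 values exceeded 1.5. Between W1 and W2 it was 1.02 to 4.38, and 8 of 18 values, from 5 members, exceeded 1.5. Over all tested IDs, the share above 1.5-fold was 13.6% (elastic) and 20.9% (viscous) in Jak2 V617F cells, and 33.2% (elastic) and 33.1% (viscous) in control cells. The 5 members were *Ccl17*, *Cd40* and *Zbtb46* in both gels, *Cd80* in elastic and *Itgax* in viscous gel. *Cd40* was 3.07-fold lower in W1 than in W2 in elastic and 3.30-fold lower in viscous gel, and *Zbtb46* was 2.86-fold and 2.98-fold higher. *Ccr7*, *Cd86* and *Cd83*, also tied to maturation, differed by 1.02-fold to 1.39-fold between these numbers. The part of other cell types or of sample quality in the W1 libraries was not tested, since their markers were not read.

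**Figure D4:**
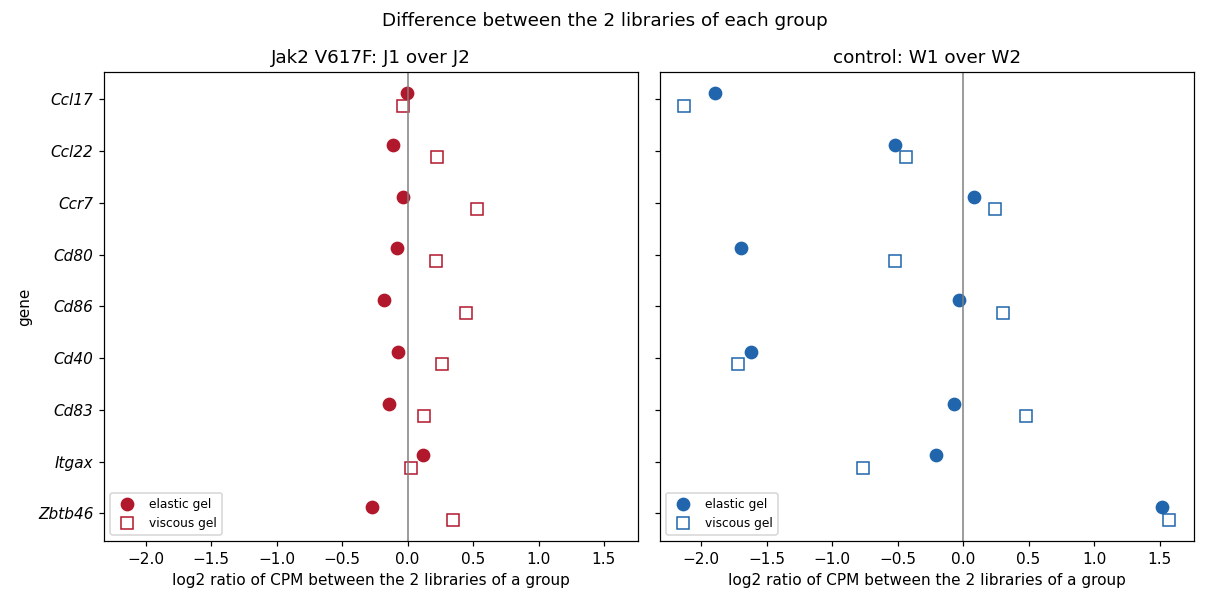
Log2 ratio of CPM between the 2 libraries of each group for the 9 members that passed the filter, as J1 over J2 in Jak2 V617F cells (left) and W1 over W2 in control cells (right), with filled circles for elastic and open squares for viscous gel. Ratios of Jak2 V617F cells lie between −0.27 and 0.53, and those of control cells between −2.13 and 1.57.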

How the data were processed

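RNA was measured by mRNA sequencing in 8 libraries. The deposited values are raw whole-number counts for each Ensembl gene ID, equal in the table of all libraries and the 8 library files. Salmon, DESeq2 and GRCm38 are named in the submitters' processing notes; versions, the rounding of gene estimates and the use of strand are not given in the sources used here. Every ID had a sum of at least 10 counts. Symbols of the 10 members were given with the member list; the RefSeq gene table (GRCm38) held an Ensembl ID for 0 of 49997 genes, so 0 other IDs were named. Coordinates were matched by symbol in that table.

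Counts were fitted with edgeR 4.0.16 in R 4.3.3 (filterByExpr by group, 14785 IDs; TMM; quasi-likelihood test, two-sided). The model had 4 group means over 8 libraries. Genotype over both gels was tested on sums per title number (15239 IDs). p-values were adjusted by Benjamini-Hochberg over all tested IDs, and calls needed an adjusted p under 0.05. SE come from the test statistic. For CPM, counts were divided by the TMM-scaled library total and multiplied by 1000000. Alternatives were DESeq2 1.42.0 (undefined adjusted p-values not called), limma-voom 3.58.1, other scalings and filters, leaving out libraries or numbers, a block for title number, and fits of only the libraries compared. Scripts were tested on simulated data. All 10 members are named; fold changes within a gel or genotype are printed for those with an unadjusted p under 0.05 or a call, and for others by range, by its ends, or beside a left-out number. The members and lists were chosen with earlier results of these data known. Figures used matplotlib 3.10.9.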

Additional observations from a re-analysis of the deposited data

Results flagged for a closer look

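The CPM of *Ccr7* separated the genotypes on opposite sides in the 2 gels, with neither effect past a test. In elastic gel both Jak2 V617F libraries lay above both control libraries (log2 fold change 0.12, SE 0.21), as in 17.2% of IDs, and in viscous gel both lay below (−0.37, SE 0.21), as in 19% of IDs. The viscous groups overlapped with DESeq2 size factors (469 CPM in the higher Jak2 V617F library and 467 CPM in the lower control library). The difference of the effects was 0.49 (SE 0.30, 95% interval −0.23 to 1.21), with an edgeR adjusted p of 0.9999. Groups of 2 libraries were not screened for single outlying samples.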

How the results depend on the processing

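These results rest on 2 libraries a group, and number W1 stood apart from the other numbers. edgeR called 0 members in every comparison; 122 of 133 alternative counts of called members were 0, among them both other scalings, both other filters and limma-voom. DESeq2 called 1 member (*Itgax*) in viscous, elastic and summed genotype comparisons. DESeq2 without W1, added after seeing the data, called 2 members for matrix over both genotypes, 1 in Jak2 V617F and 2 in control cells, and 3 and 1 for genotype in elastic and viscous gel. With 1 library or number left out, edgeR called 0 to 6 members for genotype in elastic gel, 0 to 5 in viscous gel and 0 to 6 on sums; every nonzero count came without W2.

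Over all IDs, DESeq2 called 134 for matrix over both genotypes, 35 in Jak2 V617F and 35 in control cells, 2 for the difference, 44 and 61 for genotype in elastic and viscous gel, and 106 on sums; without W1 the first 6 were 345, 189, 104, 8, 58 and 170. edgeR called 1 without a filter and 1 with the stricter filter for matrix over both genotypes, 1 on the 4 Jak2 V617F libraries alone and 2 for genotype averaged over 8 libraries. With 1 library or number left out it called 0 to 2 for matrix over both genotypes, 0 to 1 in Jak2 V617F and 0 to 1 in control cells, 0 to 1206 and 0 to 771 for genotype in elastic and viscous gel, and 0 to 2664 on sums. The causes were not tested. For the fits without W1 or W2, the share of IDs called is printed beside the called members in Results. The counts of members are to be read against those shares. Each of these fits has 1 control library a gel, or 1 control sum, so its spread comes from the Jak2 V617F libraries.

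Of 429 alternative member fold changes, 25 turned sign. The main fit called no member, so each of these could only be an uncalled value. The 429 cover 26 results. Within a gel or genotype, and for the difference of matrix effects, only members with an unadjusted p under 0.05 entered. For matrix over both genotypes, *Cd86* became −0.0038 with upper-quartile scaling and −0.0021 with the stricter filter. With libraries left out the ranges were −1.11 to 0.22 for *Ccl17*, −0.12 to 0.14 for *Ccl22*, −0.016 to 0.26 for *Ccr7*, −0.14 to 0.17 for *Cd86*, 0.039 to 0.89 for *Cd80*, −0.44 to 0.62 for *Cd40*, −0.31 to 0.073 for *Itgax* and −0.82 to 0.15 for *Zbtb46*. On sums they were −0.055 to 0.23 for *Cd83*, −0.33 to 0.44 for *Cd209a* and −1.42 to 0.13 for *Zbtb46*. The median over IDs moved by no more than 0.022 under other scalings.

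In a fit with a replicate block for the title number, edgeR called 5 IDs and 0 members for matrix over both genotypes, and 0 in the other matrix comparisons. Deviations of same-numbered libraries correlated at −0.089 in Jak2 V617F and 0.53 in control cells. The main fit held no such block, since the labels leave out what a number marks.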

Other observations

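Ratios of counts within a library do not depend on scaling between libraries. These were chosen after the values were seen and carry no test. *Ccl17* had 13.4 (J1) and 12.4 (J2) counts per 100 counts of *Ccl22* in Jak2 V617F elastic and 17.1 (J1) and 20.5 (J2) in Jak2 V617F viscous libraries. In control cells it had 3.72 (W1) and 9.62 (W2) in elastic and 4.45 (W1) and 14.4 (W2) in viscous libraries, so the share was lower in elastic gel in each of the 4 numbers. *Cd80* had 264 (J1) and 247 (J2) counts per 100 counts of *Cd86* in Jak2 V617F elastic and 168 (J1) and 197 (J2) in Jak2 V617F viscous libraries. In control cells it had 93.6 (W1) and 296 (W2) in elastic and 92.0 (W1) and 163 (W2) in viscous libraries, with a difference for W1 of under 2 counts per 100. As the genes of a ratio differ in length, only changes of the ratio between libraries can be read.

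Without any filter, edgeR gave *Cd209a* an unadjusted p of 0.00377 for elastic against viscous gel over both genotypes. Its adjusted p was 0.554 over 17640 IDs, from at most 15 counts a library. Within a genotype the unadjusted p was 0.00376 in Jak2 V617F cells, with 0 counts in both elastic libraries, and 0.185 in control cells. For the difference of matrix effects it was 0.0254. Between genotypes it was 0.0227 in elastic gel, 0.576 in viscous gel and 0.875 on sums. Each adjusted p was 0.554 or higher.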
